A study of Arabidopsis thaliana with 48 samples.

Results

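The genes described here are those of Arabidopsis thaliana seedlings whose RNA was higher under every stress treatment of the study than in its Control. They were chosen from wild-type Col-0 seedlings by one rule. FPKM values (fragments per kilobase of transcript, scaled to the mapped total of each library) were put on the scale log2(FPKM + 1) and averaged per group, and the Control mean was subtracted from the mean of each of the 7 stress groups. A gene entered where its weakest difference, the smallest of the 7, was at least 0.7, with a limit of 300 genes that was not reached. This gave 246 of 32824 listed genes, of which 232 are protein coding and 14 noncoding. The mirrored rule, with every difference at or below the same size downward, held for 155 genes. Just inside the threshold were AT3G22570 (a lipid transfer family gene, weakest difference 0.703) and PRP1 (AT1G54970, a proline-rich cell wall protein, 0.702). Just outside it were AT1G17090 (0.699) and CASP1 (AT2G36100, a Casparian strip protein, 0.698). Since Col-0 values chose the members, Col-0 differences from Control are given as a description, and every test was made in libraries of the bHLH35 mutant, which the rule did not use.

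Whole seedlings, 7 days old, of 2 genotypes were sequenced: a bHLH35 mutant and Columbia 0 (Col-0). The allele of the mutant is not given in the sources used here. Each genotype had 8 groups of 3 libraries: HL (700 µE light for 1.5 h), HS (33 °C for 1.5 h), HL+HS, S (germination and growth on medium with 50 mM salt), S+HL, S+HS, S+HL+HS, and Control (no salt, 150 µE, 21 °C). Salt therefore lasted from germination while light and heat were short, and all groups shared the same basal Murashige and Skoog medium. The labels do not say whether replicates came from separate cultures, so p-values measure the spread between these libraries only.

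Salt in the medium withdraws water from roots and loads tissues with ions. Heat unfolds proteins, and excess light damages the photosynthetic machinery and forms reactive oxygen. These stresses use partly separate sensors but share outputs, among them abscisic acid signalling, hydrophilic protective proteins of the late embryogenesis abundant (LEA) and cold-regulated groups, sugars of the raffinose family made from galactinol, chaperones and reinforcement of cell walls.

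The depth of a library, estimated from the step worth 1 fragment in low FPKM values, lay between 19.4 M and 43.1 M fragments (M, mega; median 24.6 M). For a transcript with 1 kb of effective length, 3 fragments were worth 0.0696 to 0.155 FPKM, a floor that covers counting error only. The labels give no locus for the mutated gene. AT5G57150, the locus generally known as bHLH35, was taken as that gene. It averaged 4.62 FPKM in mutant Control and 23.5 FPKM in Col-0 Control, and was not a member. Markers of green shoot tissue (rubisco and light-harvesting genes) summed to 30900 to 52170 FPKM per mutant library and root markers were present in every group, led by PYK10 (AT3G09260), a root beta-glucosidase. The replicates of HL and of S+HL stood apart in heat-responsive genes in both genotypes. HSP17.6A (AT5G12030), a small heat shock protein, had 35.7, 413 and 971 FPKM in mutant HL and 16.4, 182 and 474 FPKM in mutant S+HL. Its Col-0 values were 51.8, 179 and 923 FPKM in HL and 14.9, 138 and 368 FPKM in S+HL. In each of these 4 groups replicate 1 was the lowest, and some of the mutant counts below are also given without it.

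In Col-0 the members' differences were widest where salt was combined with light or heat. Their median log2 difference from Control was 1.37 for HL, 1.09 for HS and 1.36 for their combination, and 1.48 for S alone. With salt added it was 2.01 for S+HL, 2.03 for S+HS and 1.97 for S+HL+HS. The weakest difference ran from 0.70 to 3.28 with a median of 0.89, and it lay in HS for 112 members. The largest difference lay in a combination with salt for 223 members. Most members were low without stress: 143 averaged under 5 FPKM in Col-0 Control and 11 reached 50 FPKM. The most abundant in Control was GAMMA-TIP (AT2G36830), a tonoplast aquaporin, with a mean of 349.9 FPKM. The rule leans on Control libraries in all 7 differences: without Col-0 Control replicate 1, 171 of the 246 members were still chosen.

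**Figure D1:**
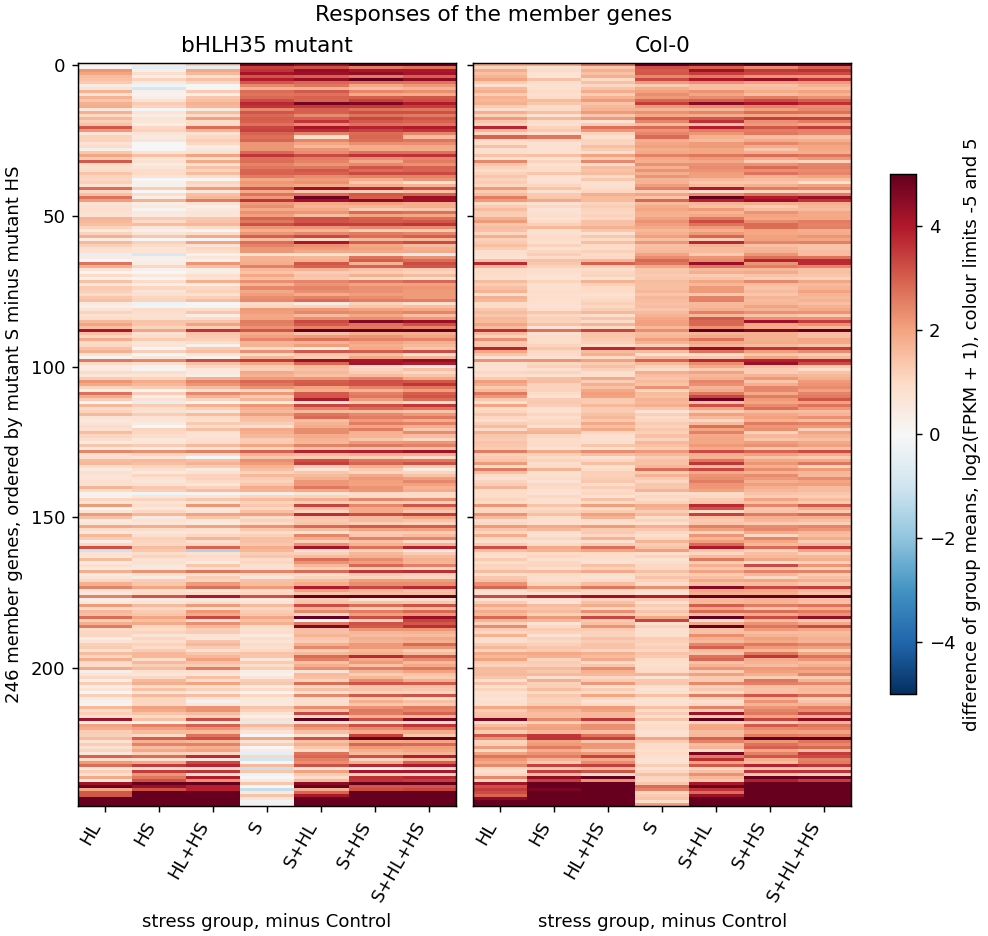
Difference from Control on the log2(FPKM + 1) scale for each of the 246 members, in the 7 stress groups of the mutant (left panel) and of Col-0 (right panel), with colour limits at −5 and 5. Genes run down the page from the largest to the smallest mutant S minus HS, so those lowest on the page were higher in mutant HS than in mutant S. Most members had their largest mutant difference in a column that combines salt with another stress.

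These 246 genes were mostly higher under stress in the mutant. Of the 246 members, 106 (43.1%) had all 7 mutant differences at or above 0.7, against 231 of 32824 listed genes (0.704%). All 7 differences were above 0 for 216 members (87.8%), beside 12.7% of listed genes and 18.4% of the genes tested below. The 106 are 45.9% of those 231. The median of the weakest mutant difference was 0.65, against 0.89 in Col-0, where the rule had set its lower bound. Among protein-coding members 105 of 232 held the threshold in the mutant, and among noncoding members 1 of 14 did.

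**Figure D2:**
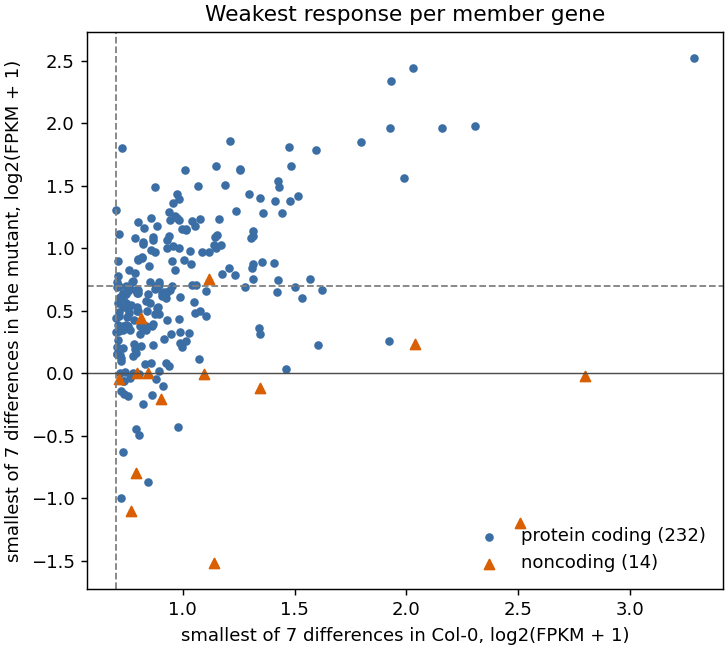
Weakest of the 7 differences from Control per member, with the mutant on the vertical axis and Col-0 on the horizontal axis, both on the log2(FPKM + 1) scale. Dashed lines mark 0.7, the value every member had to reach in Col-0; 106 points lie at or above it in the mutant and 30 lie at or below 0.

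Tested with limma on the 24 mutant libraries, over 20675 genes with Benjamini-Hochberg adjustment and a threshold of 0.05, members were called higher far more often than genes at large. In HL 151 members were called higher (61.4%), beside 8.10% of all genes tested. In HS the count was 137 (55.7%, beside 14.1%), and in HL+HS it was 170 (69.1%, beside 10.7%). In S it was 202 (82.1%, beside 19.3%). Most members were called in the combinations with salt: 228 for S+HL (92.7%, beside 24.8%), 235 for S+HS (95.5%, beside 28.3%) and 230 for the triple stress (93.5%, beside 23.9%). Without mutant HL replicate 1 the HL count was 171, and without S+HL replicate 1 the S+HL count was 228. Called higher in all 7 contrasts were 101 members (41.1%), beside 1.36% of all genes tested, and 127 members (51.6%) were higher at an unadjusted p under 0.05 in all 7, beside 2.58% of all genes tested. Every one of the 21 mutant stress libraries lay above every mutant Control library for 112 members (45.5%), beside 2.67% of all genes tested. The 7 contrasts share their 3 Control libraries, so they are not independent of each other. Shares of all genes called lower than Control are not given here, so counts called lower in gene lists and marker sets are a description.

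The median mutant change of the members was 1.08 with HL (all genes −0.05), 0.92 with HS (−0.02), 1.17 with HL+HS (−0.15) and 1.66 with S (0.13). It was 2.18 with S+HL (all genes 0.11), 2.24 with S+HS (0.14) and 2.21 with S+HL+HS (0.03). Under median-of-ratios scaling the all-gene medians lay between −0.01 and 0.04, a shift of over 0.1 in HL+HS, S and S+HS, and the members' medians were then 1.34 with HL+HS, 1.55 with S and 2.12 with S+HS. Heat was the weakest treatment of 121 members in the mutant, followed by HL with 47 and S with 46. A combination with salt was the strongest for 204 members. The strongest treatment was the same in both genotypes for 129 members (52.4%).

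**Figure D3:**
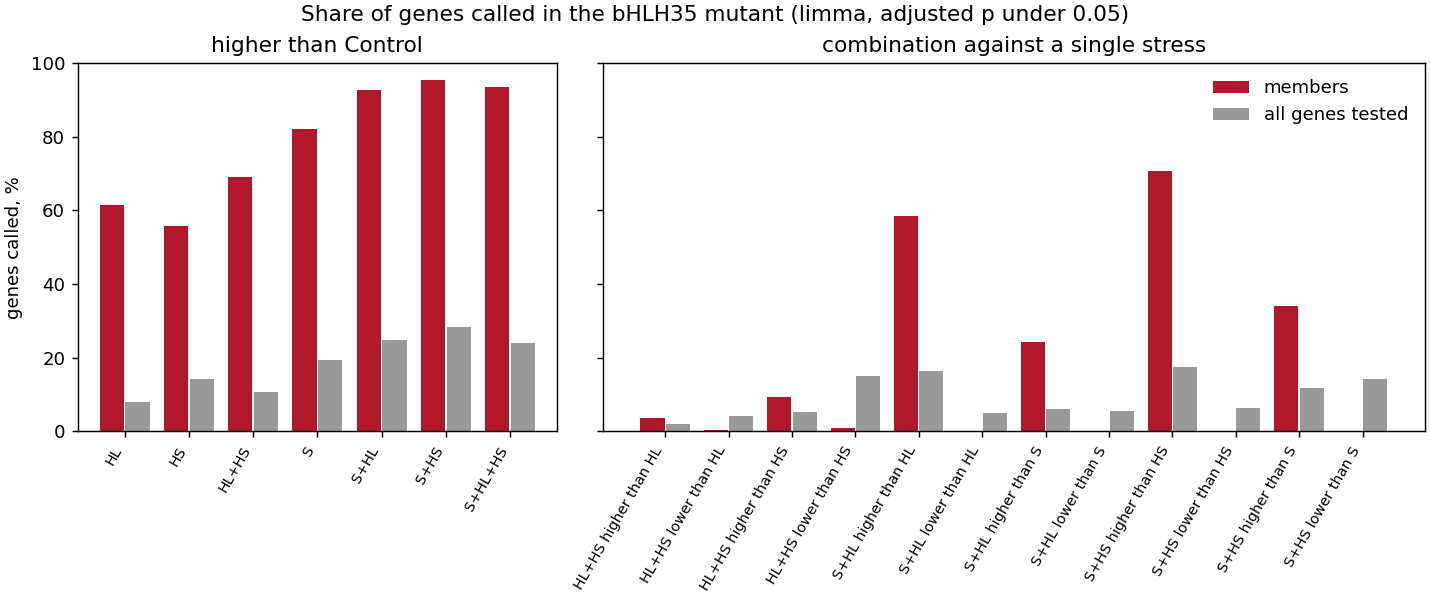
Percent of the members (red) and of all genes tested (grey) that limma called in the mutant at an adjusted p under 0.05. Left panel, higher than Control: members run from 55.7% in HS to 95.5% in S+HS and all genes from 8.10% in HL to 28.3% in S+HS. Right panel, a combination against a single stress, with higher and lower calls drawn apart.

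Of the 46 members called in exactly 6 contrasts, 27 missed HS, 9 missed S, 8 missed HL and 2 missed HL+HS. A further 34 were called in 5 contrasts, 41 in 4, 16 in 1 to 3 and 8 in 0. Of those 8, 5 had no increase at an unadjusted p under 0.05 (limma). Matching shares of all genes are not given for these counts or the lower calls below, which describe the members only. Members called lower in a mutant contrast were AT5G00980, a long noncoding RNA, and AT3G03341, named cold-regulated protein, both in S. AT5G00980 had 1.25, 1.48 and 0.507 FPKM in mutant S, against 2.14, 3.87 and 4.39 FPKM in mutant Control, and its change was −1.10 (SE 0.37, adjusted p = 0.0314, limma). AT3G03341 changed by −1.0 (SE 0.28, adjusted p = 0.0121, limma) in mutant S. The call of AT5G00980 was lost without S replicate 1 (adjusted p = 0.0554), S replicate 3 (0.123), Control replicate 2 (0.0924) or Control replicate 3 (0.112), and that of AT3G03341 without S replicate 1 (0.0608) or Control replicate 2 (0.08).

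Cold-regulated and LEA proteins, which protect membranes and proteins in drying cells, held 5 members by the list used here. By RefSeq product names, late embryogenesis, dehydrin and cold-regulated proteins made up 13 members (5.28%), against 0.39% of expressed genes. That wider set was gathered by name alone, so a shared function is not implied, and it holds 9 members outside the list. Among them LEA14 was called higher in all 7 mutant contrasts, AT3G02480 in all but S, and AT4G01110, an LEA hydroxyproline-rich glycoprotein, in 2. KIN1 (AT5G15960), a small hydrophilic protein first known from cold, had the largest weakest difference of the 246 members in each genotype. It had 4.47, 24.9 and 16.6 FPKM in mutant HL, 30.2, 20.8 and 12.4 FPKM in mutant HS, and 136, 92.4 and 109 FPKM in mutant S+HL+HS, against 0.819, 0.812 and 2.96 FPKM in mutant Control. No stress library overlapped Control, and HL replicate 1 was the lowest of the 21. The change of KIN1 was 2.53 in HL (SE 0.42, adjusted p = 0.000371, limma) and 5.57 in S+HL+HS (SE 0.42, adjusted p = 8.19e-09, limma). In Col-0 its lowest stress library stood at 11.5 FPKM and its highest Control library at 1.51 FPKM.

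ERD10 (AT1G20450), an acidic dehydrin, had 76, 58.7 and 56.8 FPKM in mutant HS and 298, 243 and 230 FPKM in mutant S+HL, against 17.5, 15.9 and 13.3 FPKM in mutant Control. It changed by 1.96 in HS (SE 0.19, adjusted p = 3.04e-07, limma), its weakest treatment. COR47 (AT1G20440), a related dehydrin and the neighbour of ERD10, changed by 1.28 in S (SE 0.29, adjusted p = 0.00278, limma). KIN2 (AT5G15970), the neighbour and near copy of KIN1, changed by 0.88 in HS (SE 0.17, adjusted p = 0.000715, limma). How the counting split reads between such copies is not given in the sources used here, so the single values of KIN1 and KIN2, COR47 and ERD10, and LTP3 and LTP4 are uncertain to that extent.

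LEA7 (AT1G52690), a LEA protein, had 34.1, 22.2 and 28 FPKM in mutant S, against 43.6, 36.2 and 33.9 FPKM in mutant Control, and its change of −0.43 was not called (adjusted p = 0.458, limma). In Col-0 it had 36.3, 19.8 and 29.4 FPKM in S, against 4.05, 20.8 and 26.9 FPKM in Control, and those Col-0 groups overlapped, with Control replicate 1 the lowest. In S+HL it rose in the mutant by 2.70 (SE 0.39, adjusted p = 2.26e-05, limma). Of the other 14 genes of this list limma called 4 higher in HL, 2 in HL+HS, 4 in S and 8 in S+HL. In HS limma called 0 higher, and 0 had an unadjusted p under 0.05. The shares of all genes tested were 8.10% in HL, 10.7% in HL+HS, 19.3% in S, 24.8% in S+HL and 14.1% in HS. In S 3 of the 14 were called lower, LEA18 (AT2G35300), AT3G17520 and ECP63 (AT2G36640).

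The 250 bases upstream of the annotated start of KIN1 are shown because KIN1 led the set. They lie at chr5:5209467-5209716, plus strand, build TAIR10.1, from RefSeq. Capitals mark the reverse complement of the evening element AAATATCT, 62 bases upstream of the start.
KIN1: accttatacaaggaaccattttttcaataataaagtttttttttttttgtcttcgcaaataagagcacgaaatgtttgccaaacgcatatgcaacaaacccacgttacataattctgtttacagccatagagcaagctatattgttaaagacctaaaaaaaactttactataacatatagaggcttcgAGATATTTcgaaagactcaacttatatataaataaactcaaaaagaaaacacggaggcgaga
The window holds none of the ABRE, G-box, DRE core, HSE, W-box and CAMTA motifs, which are spelled out with the next windows.

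Galactinol synthases, which start the synthesis of raffinose-family sugars, had 2 members. GolS2 (AT1G56600) had 6.81, 7.38 and 2.17 FPKM in mutant S, its weakest treatment, and 57.1, 39.4 and 46.2 FPKM in mutant S+HL, against 0.959, 0.371 and 0.317 FPKM in mutant Control. All 21 stress libraries lay above Control. Its change was 1.96 in S (SE 0.39, adjusted p = 0.00088, limma) and 4.98 in S+HL (SE 0.39, adjusted p = 1.55e-08, limma). GolS1 (AT2G47180), known as a heat-induced form, had 1067, 519 and 534 FPKM in mutant HS and 28.5, 28.8 and 23.6 FPKM in mutant S, against 17.1, 18.7 and 20.5 FPKM in mutant Control. It changed by 5.08 in HS (SE 0.60, adjusted p = 3.28e-06, limma), while its change of 0.50 in S was not called (adjusted p = 0.58, limma). In HS these were the 2 called higher among 11 tested genes of the proline and raffinose list, beside 14.1% of all genes tested. Called lower in HS were 4 of the 11, with no all-gene share given.

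The GolS2 upstream window is shown beside that of AT2G21640, a gene annotated as a marker of oxidative stress, because each holds several of the motifs. The motifs were sought on both strands. They were the ABRE of abscisic acid response (ACGTGTC or ACGTGGC), the G-box (CACGTG), the DRE core bound by dehydration-responsive factors (CCGAC), a heat shock element of 2 units (HSE, GAANNTTC), the W-box of WRKY factors (TTGACC or TTGACT) and the motif of calmodulin-binding CAMTA factors (CGCGTT or CGCGTG), beside the TATA box (TATAAA). GolS2 lies at chr1:21207287-21207536, plus strand, with an HSE 186 bases and a DRE core 96 bases upstream. AT2G21640 lies at chr2:9254128-9254377, plus strand, with W-boxes 193 and 118 bases and a G-box 16 bases upstream. Capitals mark these matches, and TATA boxes are not marked.
GolS2: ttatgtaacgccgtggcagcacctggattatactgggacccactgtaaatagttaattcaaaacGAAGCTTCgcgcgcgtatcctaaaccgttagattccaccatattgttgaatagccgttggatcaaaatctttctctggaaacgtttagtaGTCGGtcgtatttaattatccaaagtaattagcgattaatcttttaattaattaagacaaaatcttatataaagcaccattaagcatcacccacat
AT2G21640: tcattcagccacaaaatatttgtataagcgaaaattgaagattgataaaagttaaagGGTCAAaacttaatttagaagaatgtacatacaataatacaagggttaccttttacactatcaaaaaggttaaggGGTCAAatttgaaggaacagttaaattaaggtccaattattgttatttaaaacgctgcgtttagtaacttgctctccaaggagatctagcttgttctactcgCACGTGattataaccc
Shares were counted over the 232 protein-coding members and over the 19806 expressed protein-coding genes with the same window, and were not tested. The ABRE was in 8.62% of member windows against 7.51% of expressed genes, the G-box in 12.1% against 7.54%, the DRE core in 11.6% against 13%, the HSE in 12.1% against 9.22% and the W-box in 31.9% against 28.4%. The CAMTA motif was in 3.02% against 5.1%, the evening element in 4.74% against 4.99% and the TATA box in 52.2% against 46.3%. A match is a description of letters, and a G-box can overlap an ABRE.

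AT2G21640 itself had 2.71, 19.7 and 24.7 FPKM in mutant HL and 121, 191 and 224 FPKM in mutant S+HS, against 4.01, 3.65 and 2.27 FPKM in mutant Control. HL replicate 1 lay inside the Control range, and the HL change of 1.56 was called (SE 0.52, adjusted p = 0.0419, limma). That call was lost without Control replicate 1 (adjusted p = 0.07), Control replicate 2 (0.0792), Control replicate 3 (0.132), HL replicate 2 (0.191) or HL replicate 3 (0.222), and with no filter on low values (0.0677). In the other 6 treatments every library lay above Control.

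**Figure D4:**
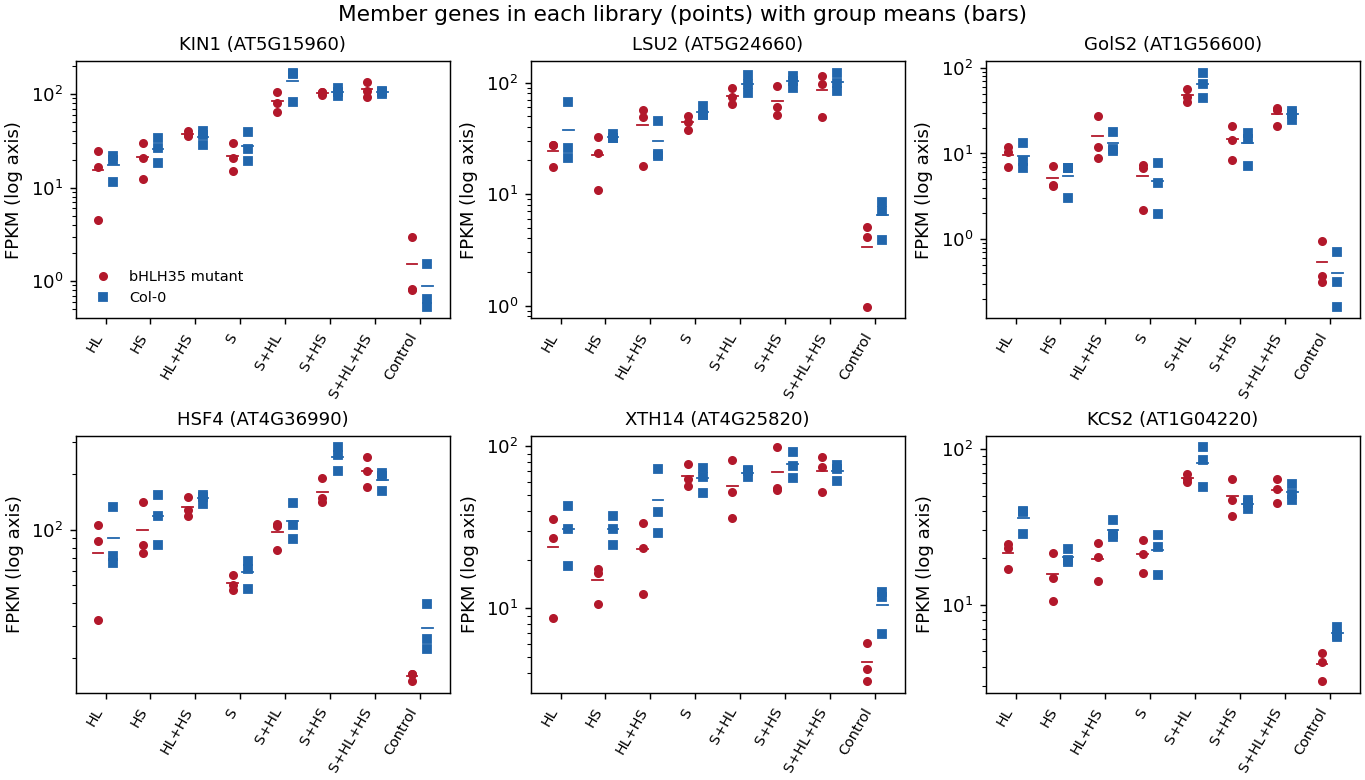
FPKM of 6 members in every library (log axis), with mutant points (red circles) left of Col-0 points (blue squares) in each group and Control at the right end. Short bars are group means, and in the mutant every stress point of these genes lies above the mutant Control points.

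Abscisic acid signalling contributed 1 of 9 clade A protein phosphatases 2C, negative regulators of the hormone's pathway. HAI1 (AT5G59220) had 3.80, 2.19 and 1.44 FPKM in mutant S and 46.9, 34.7 and 47.3 FPKM in mutant S+HL, against 0.798, 0.478 and 0.836 FPKM in mutant Control. The S+HL change was 4.68 (SE 0.35, adjusted p = 9.64e-09, limma). The S change of 0.98 passed at the margin (SE 0.35, adjusted p = 0.0454, limma). Its call was lost with no filter (adjusted p = 0.0681), under median-of-ratios scaling (0.0824), without a trend (0.0505), without S replicate 1 (0.203), S replicate 2 (0.0907) or any 1 Control library (0.0743 to 0.13), and without any 1 of 7 libraries of other groups (0.05 to 0.0534). Of the 9 phosphatases 4 were called higher in HL and 8 in S+HL, and in HS and in S the 1 called was HAI1. Of all genes tested, 8.10% were called higher in HL, 24.8% in S+HL, 14.1% in HS and 19.3% in S. No PYR/PYL receptor, SnRK2 kinase, ABF factor, gene of abscisic acid synthesis or breakdown, or stress NAC or HD-Zip factor of the lists was a member. The NAC and HD-Zip list had 8 of 10 genes called higher in S+HL and 1 in HS.

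The heat shock list had 2 members of 26 genes. In the mutant 22 of the 26 were called higher with HL, beside 8.10% of all genes tested. The count was 24 with HS (beside 14.1%) and 25 with HL+HS (beside 10.7%), but 1 with S (beside 19.3%). That 1 was HSF4 (AT4G36990), a class B heat shock factor that acts as a repressor. It had 50.2, 56.9 and 47.3 FPKM in mutant S and 248, 171 and 209 FPKM in mutant S+HL+HS, against 15.1, 16.4 and 16.4 FPKM in mutant Control. The groups did not overlap, and its S change was 1.63 (SE 0.30, adjusted p = 0.000447, limma). The other member, HSP17.6A, had 1854, 831 and 788 FPKM in mutant HS and 2.42, 0.911 and 1.21 FPKM in mutant S, against 1.01, 1.23 and 3.62 FPKM in mutant Control. Its change was 8.60 in HS (SE 0.95, adjusted p = 1.68e-06, limma) and −0.17 in S, which was not called (adjusted p = 0.924, limma). AT5G51440, an HSP20-like chaperone outside the list, had 16, 23.4 and 35.3 FPKM in mutant S, against 6.62, 7.86 and 11 FPKM in mutant Control, a change of 1.40 (SE 0.47, adjusted p = 0.0333, limma). That call was lost without S replicate 2 (adjusted p = 0.0798), S replicate 3 (0.129), Control replicate 1 (0.109) or Control replicate 2 (0.082), with no filter (0.0543) and under median-of-ratios scaling (0.0643).

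The high light, jasmonate, autophagy and bHLH lists each held 1 member, and these 4 were called in all 7 mutant contrasts. ELIP1 (AT3G22840), an early light-induced protein that binds pigments in stressed chloroplasts, had 46.9, 39.6 and 19.7 FPKM in mutant HS and 174, 218 and 250 FPKM in mutant S+HL, against 13, 8.29 and 11.6 FPKM in mutant Control. Its change was 1.54 in HS (SE 0.27, adjusted p = 0.000265, limma) and 4.17 in S+HL (SE 0.27, adjusted p = 2.12e-09, limma). VSP2 (AT5G24770), a vegetative storage protein of the jasmonate response, changed by 1.26 in HS (SE 0.44, adjusted p = 0.0379, limma). ATG8H (AT3G06420), an autophagosome protein, changed by 1.17 in HS (SE 0.25, adjusted p = 0.00116, limma). The weakest contrast of AT4G29930, a basic helix-loop-helix factor, was HL with 0.98 (SE 0.30, adjusted p = 0.0289, limma). The call of VSP2 was lost without HS replicate 2 (adjusted p = 0.156), HS replicate 3 (0.0675), Control replicate 2 (0.118) or Control replicate 3 (0.123), and with no filter (0.0622). That of AT4G29930 was lost without HL replicate 2 (0.0612), HL replicate 3 (0.13), Control replicate 2 (0.132) or Control replicate 3 (0.0907). Of the other 11 autophagy genes, at most 4 were called higher in any treatment. That count was reached in S+HS and S+HL+HS, where 28.3% and 23.9% of all genes tested were called. The sugar starvation list had 0 members, and 9 of its 13 genes were called lower in S, with no all-gene share given. The lists of WRKY and ERF factors, cuticular wax and seed storage also had 0 members.

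A list of sulfur limitation genes held 4 members. This list and the others from here on were made after member values were seen, so their counts are a description. Plants short of sulfate induce LSU proteins, the SDI1 repressor of glucosinolate synthesis and enzymes that break down glutathione. LSU2 (AT5G24660) had 10.9, 32.5 and 23.4 FPKM in mutant HS and 96.2, 49.6 and 113 FPKM in mutant S+HL+HS, against 0.98, 5.02 and 4.11 FPKM in mutant Control. Stress and Control libraries did not overlap. Its change was 2.44 in HS (SE 0.45, adjusted p = 0.000342, limma) and 4.39 in S+HL+HS (SE 0.45, adjusted p = 2.43e-07, limma). LSU3 (AT3G49570), its paralog, changed by 1.78 in HS (SE 0.34, adjusted p = 0.000585, limma).

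ATSDI1 (AT5G48850) had 4.53, 9.08 and 4.43 FPKM in mutant HS and 91.0, 83.8 and 117 FPKM in mutant S+HS, against 1.71, 1.90 and 2.53 FPKM in mutant Control. It changed by 1.15 in HS (SE 0.32, adjusted p = 0.0104, limma) and by 5.01 in S+HS (SE 0.32, adjusted p = 1.86e-09, limma). AT5G26220, a ChaC-like glutathione-degrading enzyme, changed by 1.28 in HS (SE 0.44, adjusted p = 0.0331, limma). Without HS replicate 2 the call of ATSDI1 was lost (adjusted p = 0.0702). That of AT5G26220 was lost without HS replicate 2 (0.0644), HS replicate 3 (0.121), Control replicate 1 (0.0858) or Control replicate 2 (0.0911), and with no filter (0.0546). The whole list of 14 genes had 9 called higher in mutant HL, 7 in HS, 9 in HL+HS and 14 in each of the 4 groups with salt. The 10 genes that were not members had 3 called in HS, beside 14.1% of all genes tested.

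Phosphate limitation held 3 members of 14 listed genes. PAP17 (AT3G17790), a purple acid phosphatase, had 21.8, 21.8 and 18.3 FPKM in mutant HS and 66.8, 66.2 and 50.1 FPKM in mutant HL, against 5.66, 8.92 and 10.9 FPKM in mutant Control. All stress libraries were above Control, and the HS change was 1.22 (SE 0.20, adjusted p = 0.000134, limma). PEPC1 (AT1G17710), a phosphatase acting on phosphoethanolamine and phosphocholine, changed by 1.36 in HS (SE 0.42, adjusted p = 0.0185, limma), and PS2 (AT1G73010), a pyrophosphatase, changed by 1.02 without being called (adjusted p = 0.0809, limma). The call of PEPC1 was lost without HS replicate 2 (adjusted p = 0.108), HS replicate 3 (0.0573) or Control replicate 3 (0.061), and PS2 was called without HS replicate 1 (0.0389) and with a pseudocount of 0.1 (0.02). Across the list 9 genes were called higher with HL, 4 with HS and 7 with both, and 11 to 13 in each group with salt. The 11 genes that were not members had 2 called in HS, beside 14.1% of all genes tested.

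Genes of root hairs, suberin and the Casparian strip formed a further group. Root hairs are outgrowths of epidermal cells, and suberin and the Casparian strip seal the endodermis around the vascular tissue. Of 24 root hair genes 10 were members. In the mutant all 24 were called higher in each of the 4 groups with salt. In HL 14 were called, in HL+HS 5 and in HS 1. Of all genes tested, 8.10% were called in HL, 10.7% in HL+HS, 14.1% in HS and 19.3% to 28.3% with salt. The 14 genes that were not members had 7 called in HL, 1 in HL+HS and 0 in HS. The 1 called in HS was XTH14 (AT4G25820), which loosens and rejoins xyloglucan in the wall. It had 16.5, 17.6 and 10.6 FPKM in mutant HS and 63.2, 78.2 and 56.7 FPKM in mutant S, against 3.56, 6.13 and 4.25 FPKM in mutant Control. Its HS change was 1.49 (SE 0.42, adjusted p = 0.0105, limma). The other 9 members, among them the receptor-like kinase PERK13, the lipid transfer protein COW1 and the bHLH factor LRL3, were called in 4 to 6 contrasts. EXPA7 (AT1G12560), a root hair expansin, changed by 1.0 in HS, which was not called (adjusted p = 0.0599, limma) but passed with a pseudocount of 0.1 (adjusted p = 0.0351), over genes with mean FPKM of at least 5 (0.0495) and without HL replicate 1 (0.0193), HL replicate 2 (0.0408) or HL+HS replicate 1 (0.0321).

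Suberin synthesis and export held 7 members of 16 listed genes, and 5 of them were called in all 7 mutant contrasts: the hydroxylase CYP86B1, the feruloyl transferase RWP1, the elongase KCS2, the reductase FAR4 and the transporter ABCG6. KCS2 (AT1G04220), which elongates very long chain fatty acids, had 21.4, 14.9 and 10.6 FPKM in mutant HS, against 4.90, 4.26 and 3.22 FPKM in mutant Control. Its HS change was 1.66 (SE 0.25, adjusted p = 4.24e-05, limma). CYP86B1 (AT5G23190), a fatty acid hydroxylase, changed by 1.07 in HS (SE 0.28, adjusted p = 0.00665, limma). MYB53 (AT5G65230), a transcription factor, changed by 0.53 in HS, which was not called (adjusted p = 0.137, limma) but passed with a pseudocount of 0.1 (adjusted p = 0.042). ABCG2 (AT2G37360), a transporter, was called higher by limma in 0 contrasts, and in 0 at an unadjusted p under 0.05. It is covered over 94.1% of its length by a noncoding gene on the other strand. KCS2 is also covered by one, over 74.5% of its length, so its values carry the same uncertainty. Across the list 6 genes were called higher in HS and 13 in S. The 9 genes that were not members had 1 called in HS and 7 in S. Of all genes tested, 14.1% were called in HS and 19.3% in S. The Casparian strip list had 1 member of 7 genes, CASP5 (AT5G15290), whose HS change of 0.46 was not called (adjusted p = 0.385, limma).

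Lipid transfer family genes, whose small secreted proteins carry lipids to cutin, suberin and membranes, made up 13 members (5.28%), against 0.371% of expressed genes. AT3G22620 had 134, 99.1 and 82.6 FPKM in mutant HS, against 16.2, 27.6 and 16.8 FPKM in mutant Control, with no overlap. Its HS change was 2.34 (SE 0.33, adjusted p = 2.55e-05, limma). LTP3 (AT5G59320) had 4.59, 6.73 and 2.06 FPKM in mutant HS and 112, 102 and 186 FPKM in mutant S+HL, against 0.337, 0.512 and 0.0779 FPKM in mutant Control, and its HS change was 1.97 (SE 0.42, adjusted p = 0.0014, limma). Its neighbour LTP4 (AT5G59310) was listed at 0 in every Control library of both genotypes. LTP4 was called higher in 5 mutant contrasts, and not in HS or HL+HS. Its HS change was 0.32 (adjusted p = 0.756, limma).

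AT2G48130 and its neighbour EDA4 belong to the same family. AT2G48130 had 15.7, 15.4 and 12.3 FPKM in mutant HS, against 3.17, 4.10 and 2.67 FPKM in mutant Control. Its HS change was 1.85 (SE 0.26, adjusted p = 2.23e-05, limma). Its upstream window is shown as the one of highest rank that holds an ABRE. It lies at chr2:19686057-19686306, minus strand, build TAIR10.1 from RefSeq, with the ABRE in capitals 102 bases upstream.
AT2G48130: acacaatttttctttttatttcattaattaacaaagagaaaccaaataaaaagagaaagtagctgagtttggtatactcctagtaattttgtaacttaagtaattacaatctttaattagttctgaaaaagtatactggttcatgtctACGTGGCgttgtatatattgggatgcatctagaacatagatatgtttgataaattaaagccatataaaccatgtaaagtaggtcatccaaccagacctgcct

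Other product families were peroxidases with 7 members (2.85%, against 0.41% of expressed genes), xyloglucan endotransglucosylases with 4 (1.63%, against 0.121%), dirigent proteins with 3 (1.22%, against 0.0964%) and aquaporins with 3 (1.22%, against 0.135%). GAMMA-TIP had 730, 731 and 659 FPKM in mutant S, its weakest treatment, against 343, 296 and 319 FPKM in mutant Control, a change of 1.14 (SE 0.17, adjusted p = 5.33e-05, limma). By product name, 3 members (1.22%, against 2.63%) were counted as transcription factors: AT4G29930, MYB53 and AT5G39240. That count left out members described above as factors, such as HSF4 and LRL3. The shares are therefore not those of all transcription factors. Members also lay side by side: 15 pairs of neighbouring protein-coding genes were both members. A matching number for other genes is not given, so this count is a description. The pairs include KIN1 and KIN2, COR47 and ERD10, and LTP3 and LTP4, whose single values are uncertain as said above.

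Markers of tissue moved beside these groups. The 7 root markers summed to 2622 to 3738 FPKM in mutant S libraries and 724 to 1106 FPKM in mutant HL+HS libraries, against 1304 to 1498 FPKM in mutant Control libraries. PYK10 made up most of that sum, NRT2:1 was at or near 0 in every group, and 1 of the 7, EXPA7, is itself a member. Of the 6 root markers tested by limma, 0 were called higher in HS (1 at an unadjusted p under 0.05), 2 in HL and 4 in S. In HS 1 was called lower. In HL+HS 2 were called higher and 2 lower, and in S+HS 3 higher and 1 lower. PYK10 changed by −0.28 in HS (adjusted p = 0.353, limma) and by 1.13 in S (adjusted p = 0.000511, limma). The 7 green shoot markers summed to 30900 to 32800 FPKM in mutant S+HL+HS libraries, against 48860 to 52170 FPKM in mutant Control libraries, and 5 of the 7 were called lower there. Their part in the members' changes was not tested, and in whole seedlings fewer cells of a type and less RNA per cell cannot be told apart.

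**Figure D5:**
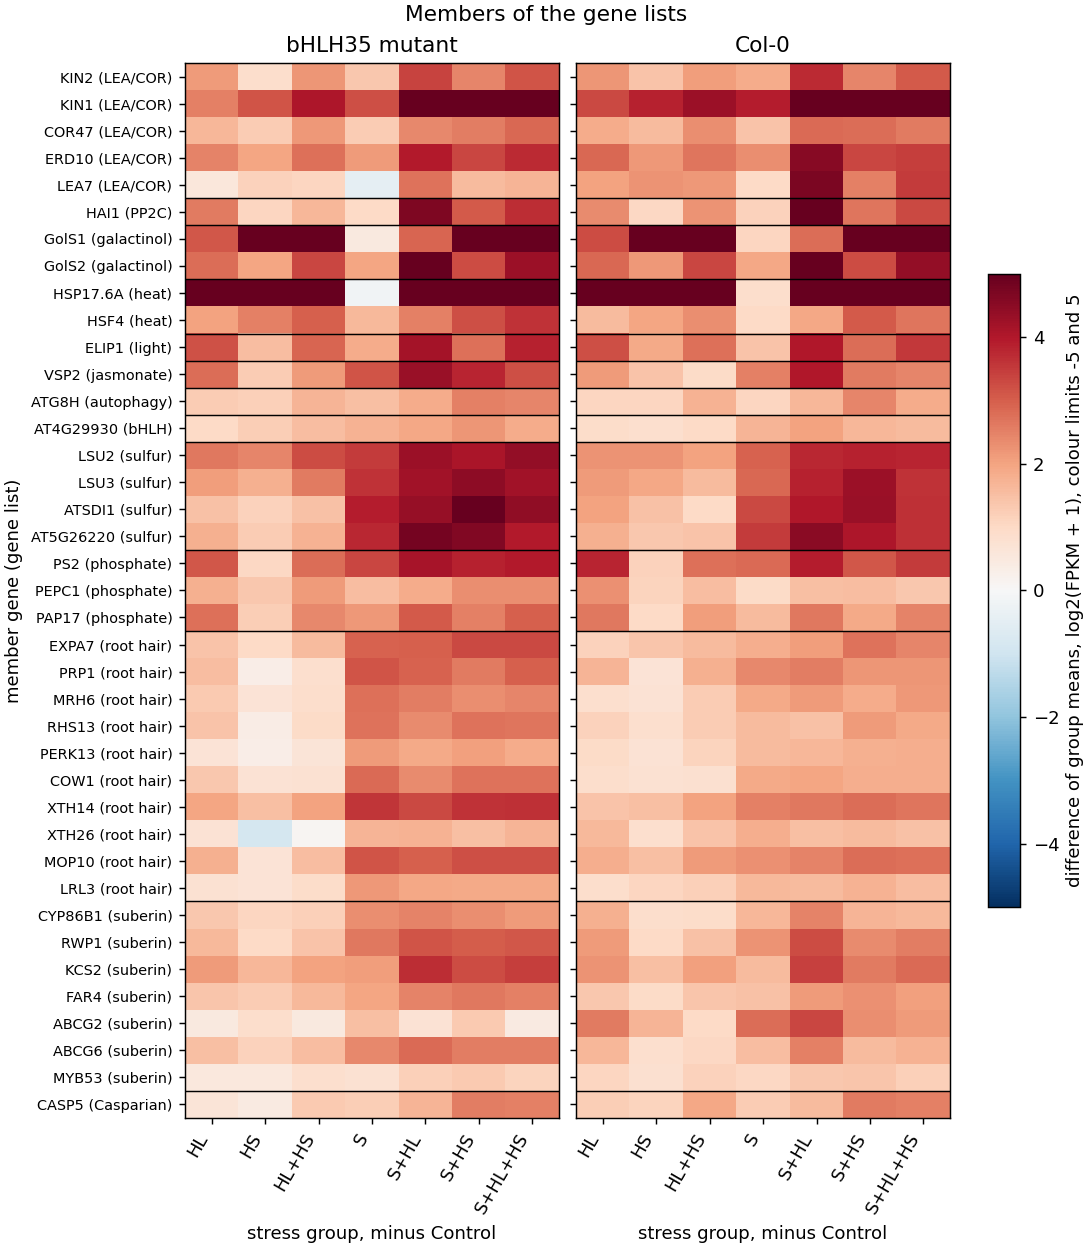
Difference from Control, as group means of log2(FPKM + 1), for the members found in the gene lists, in the 7 stress groups of the mutant (left panel) and of Col-0 (right panel), with colour limits at −5 and 5 and lines between lists. HSP17.6A and LEA7 are below 0 in mutant S and XTH26 is below 0 in mutant HS, and in the mutant the sulfur and root hair members have their larger differences in the groups with salt.

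Contrasts between stress groups asked what another stress added for the members, with no Control library in the comparison. Adding salt to heat raised 174 members (70.7%, beside 17.5% of all genes tested), and adding salt to light raised 144 (58.5%, beside 16.4%). Without mutant S+HL replicate 2 the count of 144 became 81. Adding heat to salt raised 84 (34.1%, beside 11.9%), and adding light to salt raised 60 (24.4%, beside 5.97%). Called lower by limma were 0 members in S+HS against HS (6.24% of all genes), S+HL against HL (4.97%), S+HL against S (5.55%) and S+HS against S (14.3%). At an unadjusted p under 0.05, 0 were lower in the contrasts against HS and HL, 1 in S+HL against S and 2 in S+HS against S.

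Few members were called between HL+HS and either HL or HS, though 170 were called higher in HL+HS than in Control. HL+HS raised 9 members over HL (3.66%, beside 1.96% of all genes) and lowered 1 (0.407%, beside 4.21%). The 9 became 20 without HL replicate 3 and 4 without HL replicate 1 or HL+HS replicate 1. HL+HS raised 23 over HS (9.35%, beside 5.32%) and lowered 2 (0.813%, beside 15%), and the 23 became 9 without HS replicate 3. AT2G36090, an F-box protein, was the member lowered over HL, by −0.91 (adjusted p = 0.0124, limma), and over HS it changed by −0.75 (adjusted p = 0.0149, limma). Its calls were lost without single HL, HS or HL+HS libraries (adjusted p = 0.0501 to 0.0774). The other member lowered over HS was AT5G61880, at −0.49 (adjusted p = 0.0388, limma), which lost its call without any 1 of the 6 libraries compared (0.0558 to 0.125) and under median-of-ratios scaling (0.268).

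The largest called additions were in the following members. AT3G07365, a noncoding RNA, rose by 10.03 in S+HS over S (adjusted p = 3.43e-06, limma) and by 6.57 in S+HL over S (adjusted p = 0.000662, limma), and HSP17.6A rose by 9.23 (adjusted p = 1.21e-06, limma) and 5.56 (adjusted p = 0.000566, limma). AT5G33355, a defensin-like protein, rose by 5.20 in S+HS over HS (adjusted p = 4.26e-07, limma) and by 4.02 in S+HL over HL (adjusted p = 1.31e-05, limma). ATSDI1 rose by 3.86 in S+HS over HS (adjusted p = 3.83e-07, limma), and AT5G54370, an LEA-like protein, by 3.10 in S+HL over HL (adjusted p = 7.25e-06, limma). The largest in HL+HS were AT1G52560, a small chaperone, at 4.27 over HL (adjusted p = 0.000946, limma), AT3G03270 at 2.37 over HL (adjusted p = 0.000383, limma), AT1G20070 at 1.86 over HS (adjusted p = 0.000163, limma) and PS2 at 1.79 over HS (adjusted p = 0.00704, limma).

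Some members lay below the sum of what each stress did alone, taken on the log2 scale. In HL+HS the median deviation of the members from that sum was −0.83 (all genes −0.10), 231 members were below the sum, and 34 were called below it (13.8%, beside 2.61% of all genes tested). In S+HL+HS the median was −1.60 (all genes −0.07), 228 were below, and 63 were called (25.6%, beside 1.82%). Both all-gene medians were below 0, so most genes tested also lay below the sum in each of these combinations. Called above the sum by limma were 0 members in either (beside 1.43% and 1.23% of all genes, and 0 at an unadjusted p under 0.05 in both). LSU2 stood at −4.21 from the sum in S+HL+HS (SE 0.89, adjusted p = 0.0183, limma), a call lost without Control replicate 1 (0.0785). HSP17.6A stood at −5.77 in HL+HS (SE 1.34, adjusted p = 0.0194, limma), a call lost without Control replicate 1 (0.0511), HL replicate 2 (0.0507) or HL replicate 3 (0.0606). These sums take Control away more than once, and genes chosen for responding to every single stress have large sums by choice. The counts moved with single libraries. The 34 became 20 without Control replicate 1, 64 without HL replicate 1, 52 without HS replicate 1, 21 without HL replicate 2 and 22 without HL replicate 3. The 63 became 22 to 26 without any 1 Control library, 28 to 37 without S replicate 1, S replicate 2, HL replicate 2, HS replicate 2 or S+HL+HS replicate 2, and 93 without HL replicate 1.

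Several members of high rank in Col-0 were not called in at least 1 mutant contrast. AT5G33355 changed by 0.26 in HL (adjusted p = 0.742, limma), AT3G24020, a dirigent protein, by 0.67 in HS (adjusted p = 0.297, limma), and AT5G60650, a receptor-like kinase, by 0.23 in S (adjusted p = 0.728, limma). AT3G07365 and AT1G05347, both long noncoding RNAs, changed by 0.23 and −1.20 in S without being called (adjusted p = 0.915 and 0.34, limma). AT3G07365 lies entirely within HSP17.4 on the other strand, and AT1G05347 is covered over 82.9% by AT1G17860 on the other strand. Whether counting used strand is not given in the sources used here, so reads of such partners cannot be told apart. In all, 61 members overlap another annotated gene, 23 of them over at least 50% of their length. AT1G08037, a further noncoding RNA, had the lowest mutant value of any member, −1.52 in HL+HS (adjusted p = 0.299, limma). AT4G39366, a small nucleolar RNA, ranked next after KIN1 in Col-0 but was listed at 0 in 2 of 3 mutant Control libraries and at 1037 FPKM in the third.

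Levels without stress also differed between the tables. In Control the median member had 3.09 FPKM in the mutant and 3.95 FPKM in Col-0, and 160 members (65%) were lower in the mutant, beside 51.3% of all genes tested. The Col-0 Control values entered the choice of members, so nothing is read from these counts. Each genotype came as its own table, so genotype and table cannot be told apart, and no difference between genotypes was tested. AT5G57150 changed in the mutant by 0.97 in HS (adjusted p = 0.00201, limma) and by −0.16 in S (adjusted p = 0.626, limma), and its Col-0 difference in S was 0.58, below the threshold of the rule.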

How the data were processed

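The authors deposited FPKM per gene, 1 table for each genotype. Reads were trimmed with Trim Galore 0.6.4 and examined with FastQC 0.11.9, per the labels' design text, and HISAT2 2.2.1 and TAIR10 are named in the submitters' processing notes. The FPKM tool, the annotation, and whether counting used strand are not given in the sources used here. Libraries were grouped by title. Tests used limma 3.58.1 in R 4.3.3 with a mean-variance trend on log2(FPKM + 1), 1 fit over 24 mutant libraries. It held the 20675 genes that reached FPKM 1 in 3 or more of these libraries. All 246 members passed that filter. Tests were two-sided and adjusted by Benjamini-Hochberg over all genes tested, at 0.05. Changes on this scale understate those of low genes. Low values came out as whole fragments within 0.1 for 91.5% to 96.2% of values, and the floor is 3 fragments. The fit was tested on simulated data.

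The members and the lists were chosen with earlier results of these data known, and 5 lists were added after member values were seen. Genes named are the 15 members with the largest weakest Col-0 difference, listed members, the 5 highest and 5 lowest in the mutant, those at the threshold, AT5G57150, the 2 largest called additions per contrast and the promoter examples. ABCG2, AT5G51440, GAMMA-TIP, XTH26, 3 LEA genes lower in S and members of added lists or product families were named after their values were seen. Names, promoters and overlaps came from RefSeq TAIR10.1, which held 32539 of 32824 identifiers.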

Additional observations from a re-analysis of the deposited data

Results flagged for a closer look

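XTH26 (AT4G28850), a xyloglucan endotransglucosylase of root hairs, moved in opposite directions in HS in the 2 genotypes. It had 0.255, 0.467 and 0.539 FPKM in mutant HS, against 1.90, 1.07 and 1.88 FPKM in mutant Control, a change of −0.87 (SE 0.34, adjusted p = 0.0594, limma). In Col-0 it had 3.01, 4.22 and 2.81 FPKM in HS, against 0.86, 2.35 and 1.20 FPKM in Control. All 3 HS libraries lay below Control in the mutant and above it in Col-0. The rule required a rise in Col-0 HS of every member, so the Col-0 direction was fixed by the choice. The mutant change was not called in the main fit, and the difference between genotypes was not tested. With a pseudocount of 0.1 the mutant change was −1.72 and was called (adjusted p = 0.00474, limma), and over the alternatives its adjusted p was 0.00474 to 0.153.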

How the results depend on the processing

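The rule gave 84 members with a minimum difference of 1, 226 to 300 when 1 Col-0 library was left out, and 300 with a pseudocount of 0.1, of which 166 were among the 246. Each 300 is the limit of the rule: 598 genes passed with a pseudocount of 0.1, and 321 without Control replicate 2. Members called below the sum in S+HL+HS were 63, and 39 with no filter on low values. Leaving out 1 mutant library gave 20 to 64 members below the sum in HL+HS and 22 to 93 in S+HL+HS, 4 to 20 higher in HL+HS than HL, 9 to 32 higher in HL+HS than HS, and 81 to 149 higher in S+HL than HL. Members called in all 7 contrasts were 68 to 109 across libraries left out, and 85 to 114 across the other settings. Over the 13 mutant contrasts the deviations of same-numbered libraries correlated at −0.32 to 0.316, and in 0 contrasts were all 3 over 0.1, so the numbers were not used as pairs. In 2 contrasts, S+HL against HL (0.077 to 0.237) and S+HS against Control, every library correlated best with its own number, a hint from the data and not the design. A fit with a replicate block called 101 in all 7 and changed no count of higher or below-sum members by over 1.5 times.

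Of the alternatives of the 70 single changes examined, 2002 kept direction and call, 74 lost a call, 11 gained one and 10 changed sign, all of them uncalled. HSP17.6A in S ran from −0.42 to 0.20 without 1 library and turned positive without S replicate 2 or Control replicate 3. AT5G33355 in HL was −0.17 with a pseudocount of 0.1 and −0.44 (without HL replicate 2) to 0.87 without 1 library. AT5G60650 in S was −0.11 to 0.45, and negative without Control replicate 1 or S replicate 2. AT3G07365 in S was −0.27 to 0.97, and negative without Control replicate 1 or 3 or S replicate 1 or 2. The causes were not tested. Depth limits members near the floor of 0.0696 to 0.155 FPKM, such as LTP3 in Control.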
